A study of Mus musculus with 24 samples.

Results

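The expression of 43 genes that encode Polycomb proteins, histone-modifying enzymes and DNA methylation enzymes was followed in mouse leukemia cells. The genes were taken from a list by symbol, and each occurred once in all 4 deposited tables, which hold 24421, 24557, 24340 and 24421 entries for CALM-AF10, MLL-AF10, MLL-AF9 and Jak1. They comprise 5 genes of Polycomb repressive complex PRC2, 8 of PRC1, 2 of the Polycomb deubiquitinase, 7 histone demethylases, 3 methyltransferases of histone H3 lysine K36 and 3 of K9, 5 deacetylases, 4 acetyltransferases, 3 DNA methyltransferases and 3 TET dioxygenases.

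Polycomb proteins keep genes silent. PRC2, whose catalytic subunit is Ezh2 or Ezh1, methylates histone H3 at lysine K27, and PRC1, whose catalytic subunit is Ring1 or Rnf2 with partners such as Bmi1, ubiquitinates histone H2A. Demethylases and deacetylases remove marks that methyltransferases and acetyltransferases write, and Dnmt and Tet enzymes add methyl groups to DNA and oxidise them. In acute myeloid leukemia several of these genes are recurrently mutated, and Bmi1 and Ezh2 are known for sustaining the self-renewal of blood stem cells and leukemia cells.

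The study compared 8 groups of 3 RNA-seq libraries in 4 experiments, to find genes that depend on a leukemia fusion and genes regulated by the kinase JAK1. All cells were leukemia cells from the bone marrow of C57BL/6 mice, in medium containing SCF, IL3 and IL6. In the first experiment the inducible fusion CALM-AF10 was off or on. In the next 2 experiments, cells with inducible MLL-AF10 or MLL-AF9 were treated with doxycycline (DOX) or its vehicle DMSO. The genotype of these 3 models is labelled wild type, so the fusion is their stated alteration. In the last, CALM-AF10 cells were either deleted for Jak1 by Cre-ER and 4-hydroxytamoxifen (null) or carried the floxed Jak1 gene undeleted (floxed), and both arms carry the fusion. No source used here gives the promoter of the fusions, the number of clones, the dose or time of treatment, or which Jak1 exons were deleted. Whether replicate libraries came from separate cultures is not stated, so p-values reflect a spread that may be technical.

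Transcripts of the first fusion partner and of a fusion target were lower in the arms named off or DOX. Picalm, which encodes CALM, fell by 0.79 on the log2 scale with CALM-AF10 off (adjusted p = 0.000275, edgeR), and Kmt2a, which encodes MLL, fell by 0.59 with DOX in MLL-AF10 and by 1.16 in MLL-AF9 (adjusted p = 1.13e-06 and 0.00126, limma). The second partner Mllt10, which encodes AF10, fell by 0.48 in CALM-AF10 and by 0.34 in MLL-AF10 (adjusted p = 0.0018 and 1.65e-05), whereas Mllt3, which encodes AF9, was not called with DOX in MLL-AF9 (-0.33, adjusted p = 0.378) and its libraries overlapped. The fusion target Hoxa9 fell by 0.91, 0.71 and 1.57 in the 3 models. Jak1 itself averaged 1972 ± 85.1 normalized counts in null cells and 2454 ± 19.3 in floxed cells (SD, n = 3 each), a fall of 0.32 (adjusted p = 2e-08, edgeR). With the deleted exons unknown, a count over the whole gene checks the deletion only in part. Between the same arms, Picalm fell by 0.51 in null cells (adjusted p = 5.32e-15, edgeR) and Mllt10 by 0.10 (adjusted p = 0.0135). Hoxa9 was not called there (-0.05, adjusted p = 0.257). Whether the level of the fusion transcript differed between null and floxed cells was not tested. Most granulocyte genes were present, with 13 of 15 tested in CALM-AF10, 12 in MLL-AF10 and all 15 in MLL-AF9 and Jak1. In MLL-AF10 Camp, Retnlg and Mmp9 were under the filter. B cell genes were at or near 0. The CALM-AF10 libraries held 12130633 to 40187404 counts and the Jak1 libraries 11743388 to 13764632, while the depth behind the log2 and FPKM tables is unknown. The shallowest library, off 3, stood apart from the other off libraries, with a chi-square per degree of freedom of 10.4 and 11.2 against 3.67 to 5.91 for the other pairs of that experiment.

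**Figure D1:**
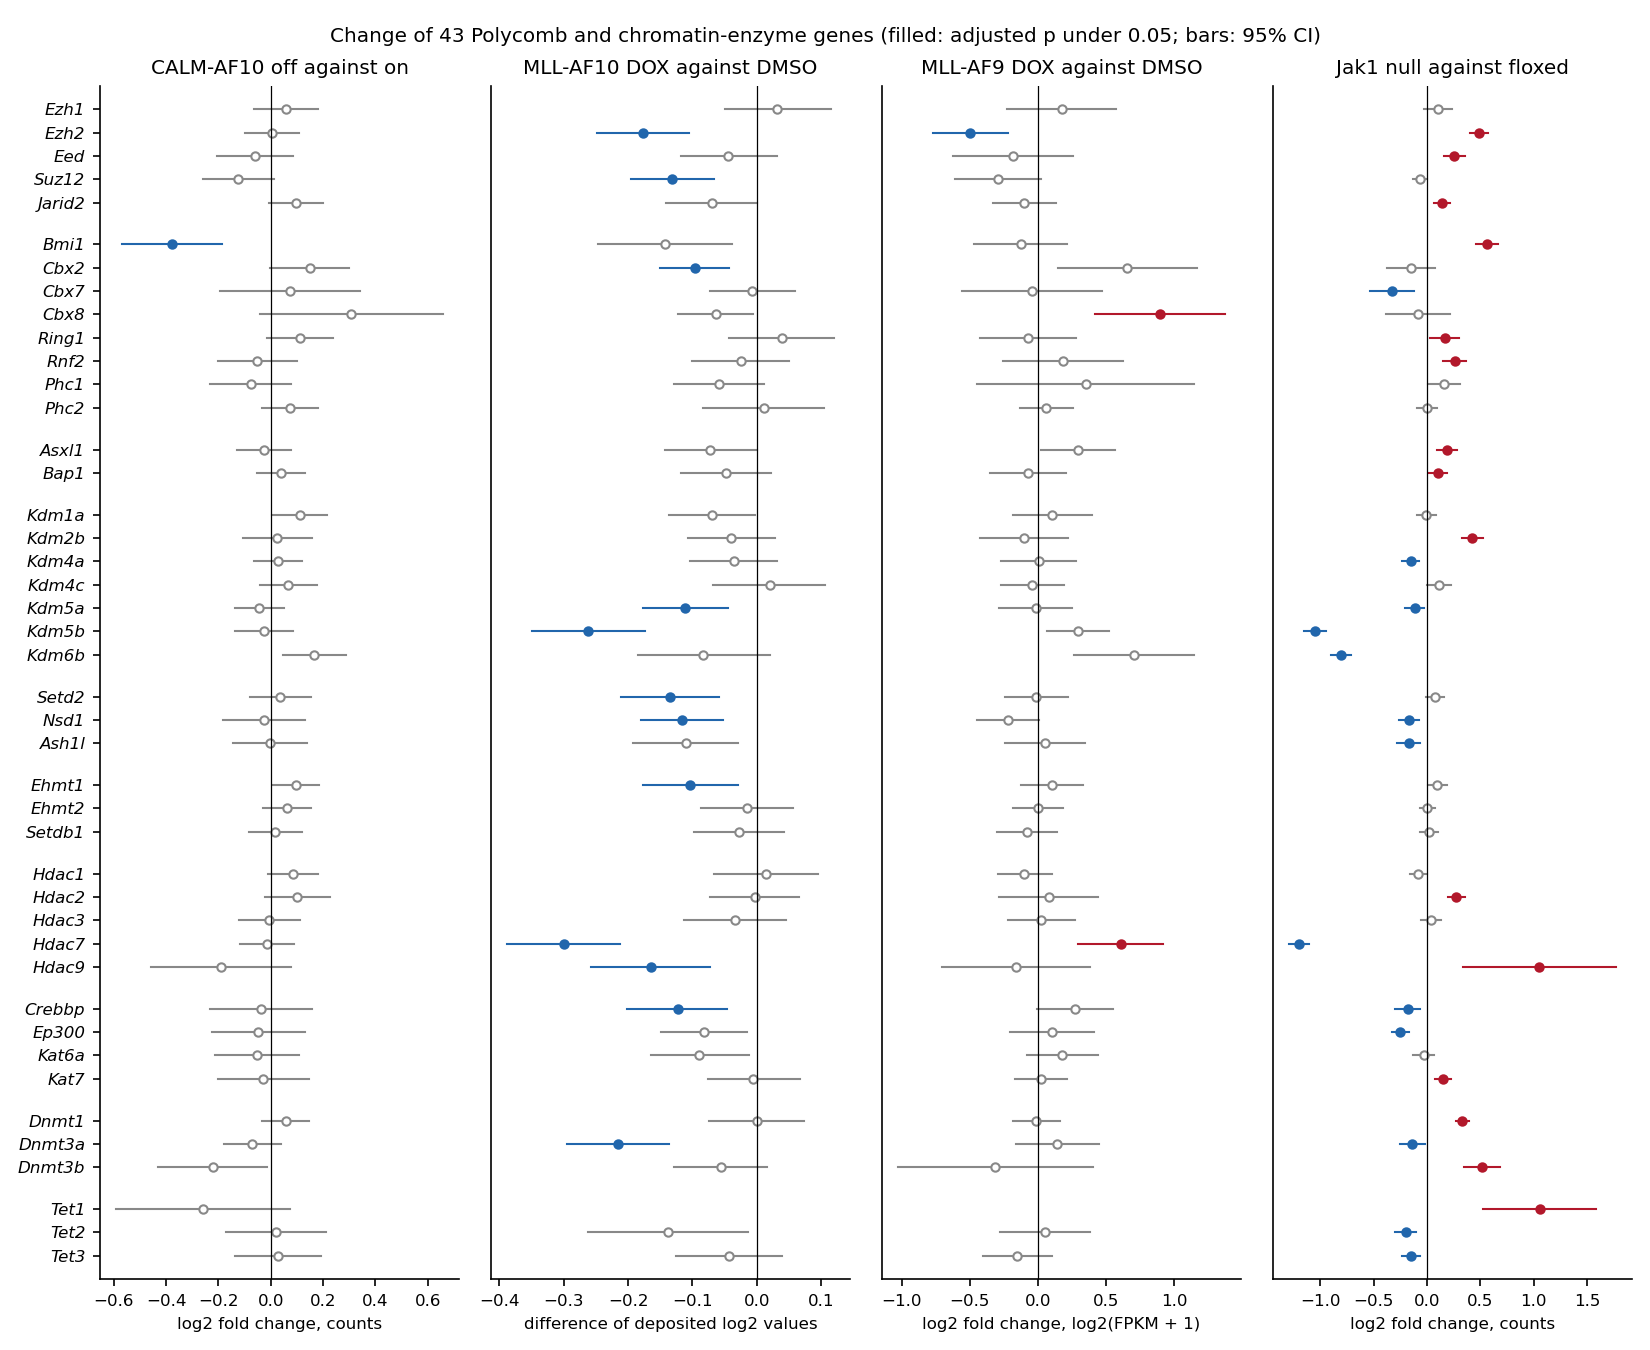
Log2 difference of the 43 genes in the 4 comparisons, in blocks by role, with 95% confidence intervals; filled points have an adjusted p under 0.05, blue for lower and red for higher. Filled points number 1 for CALM-AF10, 12 for MLL-AF10, 3 for MLL-AF9 and 28 for Jak1, the horizontal scales differ, and Tet1 was below the filter in MLL-AF10 and MLL-AF9.

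With CALM-AF10 off 1 of the 43 genes fell, Bmi1, which encodes a core PRC1 component, and none rose. Bmi1 (mm9 chr2:18598645-18608256) had 1858, 1699 and 1412 TMM-scaled counts in off 1, off 2 and off 3, against 2295, 2160 and 2088 in on 1, on 2 and on 3. All off libraries lay below all on libraries. The means were 1656 ± 226 with the fusion off and 2181 ± 105 with it on (SD, n = 3 each), a log2 fold change of -0.38 ± 0.09 (SE; adjusted p = 0.0353, edgeR's quasi-likelihood test). Without off 3, the lowest library, the change was -0.29 (adjusted p = 0.0132). The call was lost without off 2, on 1, on 2 or on 3, with adjusted p from 0.0944 to 0.12.

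The other PRC1 genes were not called. Cbx8, a chromobox subunit that binds methylated K27, had the largest positive value, 0.31, with a 95% interval from -0.04 to 0.66. Ezh2 had 3637, 3522 and 3877 TMM-scaled counts with the fusion off, against 3676, 3631 and 3668 with it on. The groups overlapped, with a log2 fold change of 0.01 and a 95% interval from -0.10 to 0.11 (adjusted p = 0.966). Its paralog Ezh1 had 1146, 1160 and 1069 counts with the fusion off and 1079, 1039 and 1133 with it on (0.06, adjusted p = 0.578), and those groups overlapped too. Suz12, the PRC2 scaffold, had a value of -0.12 without overlap of the groups, and its adjusted p was 0.267. For the class IIa deacetylase gene Hdac7, the 2039, 1915 and 2004 counts with the fusion off overlapped the 2066, 1986 and 1968 counts with it on (-0.02, adjusted p = 0.876).

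Of the 12366 genes tested 5.24% were called, 3.11% lower and 2.13% higher, against 1 of 43 members. At least 2-fold calls made up 0.615% of all genes and 0 members. The median log2 fold change of the members was 0.02, against 0.00 over all genes. At an unadjusted p under 0.05, 5 members passed, 3 higher and 2 lower, against 21.8% of all genes, and DESeq2 called 0 members higher and 1 lower. The demethylase gene Kdm6b was next to Bmi1 by adjusted p, at 0.17 (adjusted p = 0.109). Granulocyte genes moved in the same comparison, with 10 of 15 higher and 1 lower, and their summed counts were 275400 to 279900 with the fusion off against 213000 to 223200 with it on. Of the 10 monocyte genes 2 were higher, and none of the 13 proliferation genes was called. The part of these genes in the Bmi1 result was not tested, and in bulk RNA fewer cells of a type and less RNA per cell cannot be told apart.

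With DOX in MLL-AF10 cells, 12 of the 42 genes tested fell and none rose, in a fit without the replicate number as a block. The table holds log2 values whose transformation is not stated, and differences on it are small throughout: 0.0474% of all genes, and 0 members, both passed the test and changed at least 2-fold. The falls reached all roles except the Polycomb deubiquitinase and the TET enzymes. They comprised 2 PRC2 genes, 1 PRC1 gene, 2 demethylases, 2 K36 methyltransferases, 1 K9 methyltransferase, 2 deacetylases, 1 acetyltransferase and 1 DNA methyltransferase.

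In PRC2, both the catalytic and the scaffold subunit fell. Ezh2 (mm9 chr6:47480273-47545340) had deposited log2 values of 9.47, 9.42 and 9.38 in DOX 1, DOX 2 and DOX 3, against 9.62, 9.57 and 9.61 in DMSO 1, DMSO 2 and DMSO 3. All DOX libraries were lower than all DMSO libraries, with a difference of -0.18 ± 0.03 (SE; adjusted p = 0.00166, limma). Suz12 had 10.83, 10.81 and 10.77 with DOX, against 10.94, 10.95 and 10.91 with DMSO (-0.13, adjusted p = 0.0064). Again the groups did not overlap, although without DOX 3 the call was lost (adjusted p = 0.0521). Ezh1 overlapped between the arms, at 7.73, 7.74 and 7.68 with DOX and 7.61, 7.71 and 7.73 with DMSO (0.03, adjusted p = 0.609). Eed, which binds methylated K27, and Jarid2, which helps PRC2 reach its targets, had values of -0.04 and -0.07 and were not called.

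In PRC1, Bmi1 had 8.34, 8.22 and 8.14 with DOX, against 8.44, 8.31 and 8.38 with DMSO. DOX 1 lay above DMSO 2, so the groups overlapped. The difference was -0.14 and just missed the threshold (adjusted p = 0.0514). With the replicate number as a block it passed (adjusted p = 0.000813). The chromobox gene Cbx2 fell by 0.10 (adjusted p = 0.0135), and Cbx7, Cbx8, Ring1, Rnf2, Phc1 and Phc2 were not called, at -0.06 to 0.04.

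Hdac7 showed the largest difference of the set. It had 8.21, 8.12 and 8.24 with DOX, against 8.44, 8.47 and 8.56 with DMSO, with no overlap (-0.30 ± 0.04, adjusted p = 0.000118, limma). Next came Kdm5b, a demethylase of H3 lysine K4, with 7.96, 7.82 and 7.86 with DOX, against 8.14, 8.10 and 8.19 with DMSO (-0.26, adjusted p = 0.000355). The de novo DNA methyltransferase gene Dnmt3a had 8.52, 8.42 and 8.45 with DOX, against 8.68, 8.64 and 8.71 with DMSO (-0.22, adjusted p = 0.000723). In all 3 genes every DOX library was lower than every DMSO library. The remaining falls were those of Hdac9, Setd2, Crebbp, Nsd1, Kdm5a and Ehmt1, from -0.17 for Hdac9 to -0.10 for Ehmt1, with adjusted p of 0.0131 to 0.0485. Setd2 and Nsd1 write K36 methylation, Ehmt1 writes K9 methylation, Kdm5a is a paralog of Kdm5b, and Crebbp is an acetyltransferase. By contrast the maintenance methyltransferase gene Dnmt1 had a difference of 0.00 (95% interval -0.07 to 0.07) and Hdac2 one of 0.00 (-0.07 to 0.07).

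Among all 10553 genes 19.8% were called, 9.17% lower and 10.6% higher, against 12 and 0 of the 42 members, or 28.6% lower. The members' median difference was -0.07, against 0.00 over all genes, and 36 members lay below 0, 5 above and Dnmt1 at 0.00. At an unadjusted p under 0.05, 20 members, all lower, and 32.4% of all genes passed. With the replicate number as a block 17 members were called lower, the additions being Bmi1, Ash1l, Ep300, Kat6a and Tet2. Calls over all genes rose from 2089 to 3102 with it. Without a filter on low values 2 members and 604 of all genes were called, and Hdac7, Kdm5b, Dnmt3a, Ezh2 and Suz12 then had adjusted p from 0.0614 to 0.0768. Leaving out single libraries gave 6 to 15 member calls, the lowest without DOX 3 (6) and DOX 2 (7). Calls over all genes were also lowest without DOX 3 (1311) and DOX 2 (1307), and highest without DMSO 1 (2396). Hdac7, Kdm5b, Dnmt3a and Ezh2 kept their calls each time, while each of the other 8 calls was lost without at least 1 library. Beside these falls, 4 of the 13 proliferation genes were lower and none higher, with mean log2 values of 10.45 to 10.51 with DOX against 10.51 to 10.59 with DMSO. Of the 15 granulocyte genes 10 were higher and 0 lower, and of the 10 monocyte genes 6 were higher and 0 lower. Their part in the result was not tested.

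**Figure D2:**
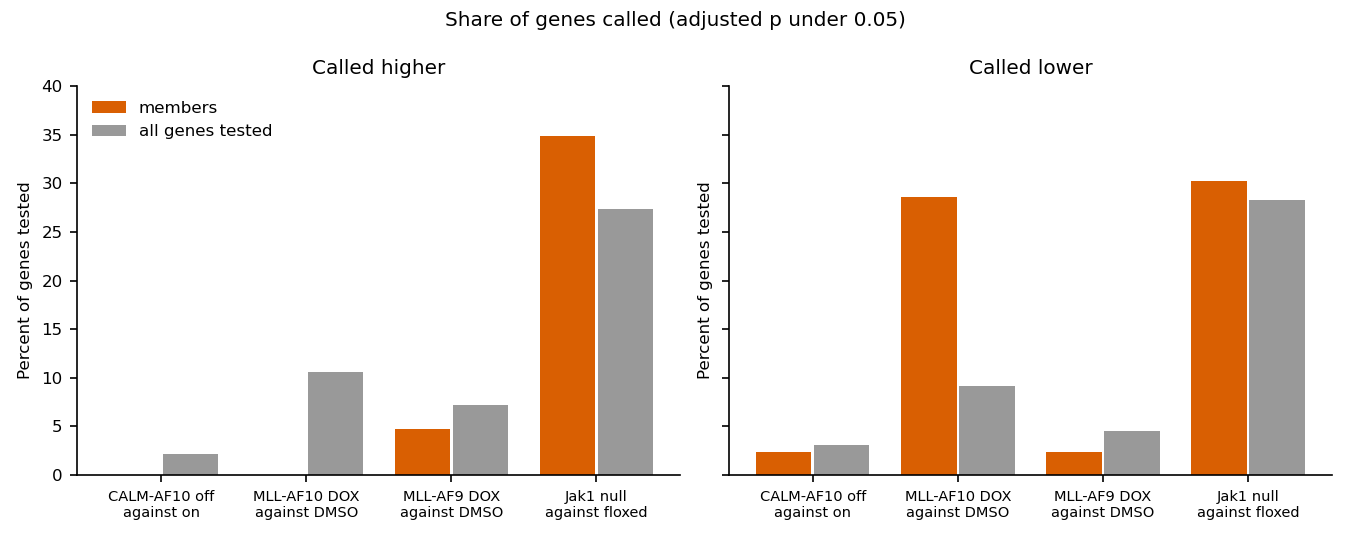
Share of the members and of all genes tested that were called at an adjusted p under 0.05, higher on the left and lower on the right, in percent. In MLL-AF10 28.6% of the members against 9.17% of all genes were called lower. In Jak1 34.9% against 27.4% were called higher and 30.2% against 28.3% lower. The members were chosen with earlier results of these data known.

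The MLL-AF9 table gives FPKM, which is scaled to transcript length, so the levels of the 43 genes can be ranked there. Dnmt1 was the most abundant, at 73.5 ± 3.78 FPKM with DOX and 74.0 ± 2.62 with DMSO (SD, n = 3 each), followed in DMSO cells by the K9 methyltransferase gene Ehmt2 (52.2 ± 2.91 with DOX, 52.1 ± 2.46 with DMSO), Suz12 and Hdac2. Ehmt2, Suz12 and Hdac2 did not differ from each other in DMSO cells beyond their spread. Of the 43 genes, 17 had at least 20 FPKM in DMSO cells, 18 had from 5 to 20 and 8 had under 5. The lowest were Cbx2, Phc1, Cbx7, Dnmt3b and Hdac9 at 1.49 to 3.14 FPKM, whose neighbours in this order overlapped in range, and Tet1, listed at the table's floor of 0.01 FPKM in all 3 DOX libraries and at 0.029, 0.01 and 0.043 in DMSO libraries. Ezh2, at 28.5 ± 2.84 FPKM, was above Ezh1, at 12.0 ± 2.46 FPKM, in DMSO cells, and with DOX they were at 19.9 ± 2.31 and 13.6 ± 1.79 FPKM. The median member had 14.5 FPKM in DMSO cells and the median gene tested 14.9.

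**Figure D3:**
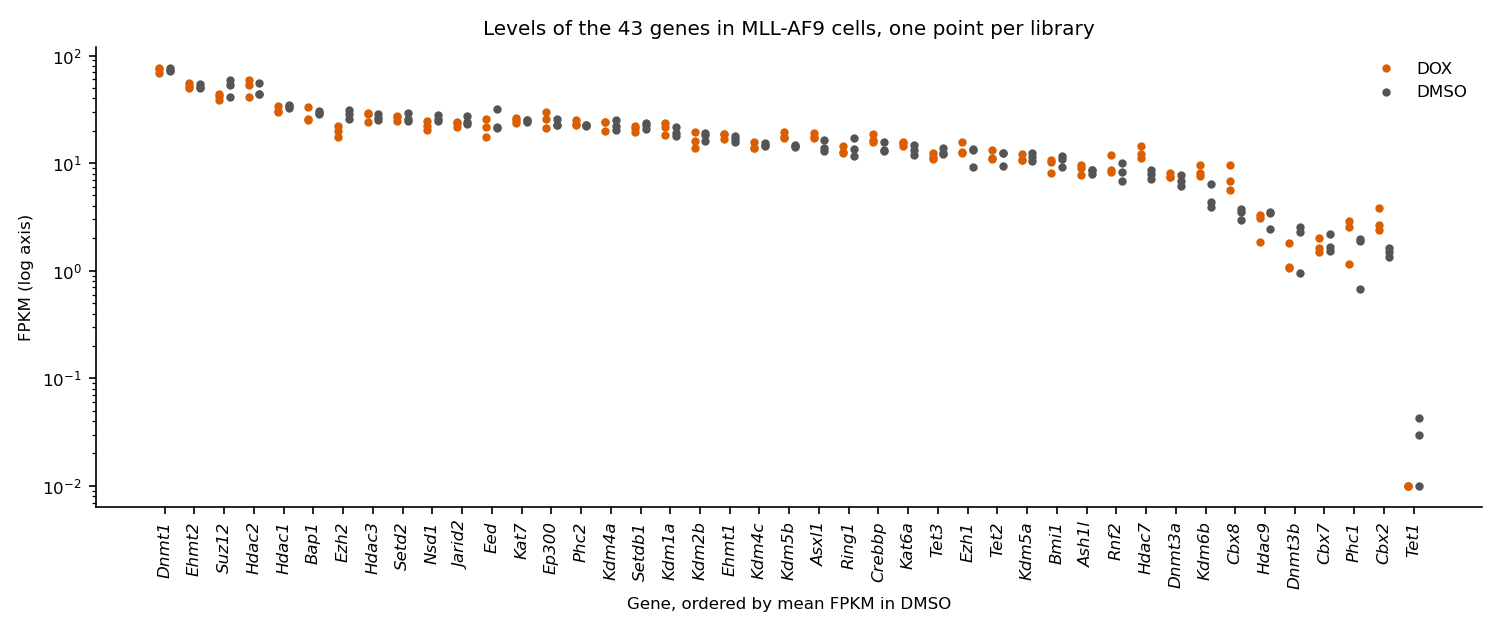
FPKM of the 43 genes in each MLL-AF9 library on a log axis, DOX in orange and DMSO in grey, ordered by the DMSO mean. Dnmt1 is highest and Tet1, at or near the floor of 0.01, is lowest; Ezh2 is lower and Hdac7 and Cbx8 are higher in all 3 DOX libraries.

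With DOX in MLL-AF9 cells, Ezh2 fell, and Hdac7 and Cbx8 rose. Ezh2 had 17.6, 19.9 and 22.3 FPKM in DOX 1, DOX 2 and DOX 3, against 28.9, 31.1 and 25.5 FPKM in DMSO 1, DMSO 2 and DMSO 3. Its groups did not overlap, and the log2(FPKM + 1) difference was -0.50 ± 0.12 (SE; adjusted p = 0.0369, limma). Hdac7 had 14.3, 12.2 and 11.2 FPKM with DOX, against 8.68, 7.86 and 7.12 FPKM with DMSO, and the lowest DOX library exceeded the highest DMSO library. The difference was 0.61 ± 0.13 (adjusted p = 0.0287). Cbx8 (mm9 chr11:118897619-118902283) had 6.8, 9.6 and 5.64 FPKM with DOX, against 3.75, 2.98 and 3.49 FPKM with DMSO, also without overlap (0.90 ± 0.20, adjusted p = 0.031).

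The other core Polycomb genes were not called in MLL-AF9. Bmi1 had 10.4, 10.7 and 8.03 FPKM with DOX, against 11.02, 11.6 and 9.29 with DMSO (-0.13, adjusted p = 0.622). Ezh1 had 12.8, 15.6 and 12.3 FPKM with DOX, against 13.3, 13.6 and 9.2 with DMSO (0.18, adjusted p = 0.554). Both overlapped between the arms. Values nearest the threshold were those of Kdm6b, a demethylase of K27 (8.45 ± 1.08 FPKM with DOX and 4.86 ± 1.29 with DMSO, 0.71, adjusted p = 0.0529), Kdm5b (0.29, adjusted p = 0.0982) and Cbx2 (0.66, adjusted p = 0.0995). In each of these 3 genes every DOX library was above every DMSO library. None of the 3 passed the test, and the share of all genes without such overlap was not computed.

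Of 10881 genes 11.8% were called, 7.23% higher and 4.54% lower, against 2 and 1 of the 42 members tested. At an unadjusted p under 0.05, 7 members and 27.9% of all genes passed. Calls of at least 2-fold on the log2(FPKM + 1) scale made up 2.6% of all genes and 0 members, but the mean FPKM of Cbx8 was 2.16-fold higher with DOX, and with a pseudocount of 0.1 its difference was 1.06. The members' median was 0.02 and that of all genes -0.02. The calls of Hdac7, Cbx8 and Ezh2 were lost when DOX 1, DOX 2 or any DMSO library was left out, with adjusted p up to 0.0940 for Hdac7, 0.106 for Cbx8 and 0.124 for Ezh2. They were held only without DOX 3. Without a filter on low values all 3 were lost, with adjusted p of 0.0973 for Hdac7, 0.153 for Cbx8 and 0.147 for Ezh2. Proliferation genes moved with Ezh2: 6 of 13 were lower and 0 higher, with summed FPKM of 863.2 to 901.9 with DOX against 1023 to 1106 with DMSO. Granulocyte genes (10 of 15 higher, 2 lower) and monocyte genes (7 of 10 higher) moved as well, and the summed monocyte genes had 13950 to 14730 FPKM with DOX against 5600 to 7024 with DMSO. Their part in the result was not tested.

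In the Jak1 experiment 28 of the 43 genes differed between null and floxed CALM-AF10 cells, 15 higher and 13 lower in null cells. This was the experiment with the most calls over all genes too, where 55.7% passed, 27.4% higher and 28.3% lower. The core Polycomb genes Ezh2 and Bmi1 rose, together with Dnmt1, Kdm2b and Hdac2, while Hdac7 and the demethylase genes Kdm5b and Kdm6b fell most. The median log2 fold change of the members was 0.02 and that of all genes 0.01. At an unadjusted p under 0.05, 31 members and 60.3% of all genes passed. The null arm differs from the floxed arm by the deletion and by the tamoxifen treatment that made it, since the floxed columns are named DMSO. No group had that treatment with Jak1 kept, so the deletion and the treatment cannot be told apart. The part of the treatment in these differences was not tested.

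Of the 5 PRC2 genes 3 were called higher and 0 lower, and of the 8 PRC1 genes 3 were higher and 1 lower. Over all genes tested 27.4% were called higher and 28.3% lower. Ezh2 had 1684, 1745 and 1650 TMM-scaled counts in null 1, null 2 and null 3, against 1261, 1196 and 1175 in floxed 1, floxed 2 and floxed 3. Bmi1 had 1116, 1141 and 1235 counts in null cells, against 832.8, 788 and 745 in floxed cells. In both genes every null library was above every floxed library, with log2 fold changes of 0.48 ± 0.04 for Ezh2 (adjusted p = 3.04e-11) and 0.56 ± 0.05 for Bmi1 (adjusted p = 7.54e-11, edgeR's quasi-likelihood test). Eed, Jarid2, Rnf2 and Ring1 rose by smaller amounts, from 0.14 for Jarid2 to 0.26 for Rnf2, and the Ring1 call was lost without null 1, null 2, floxed 1 or floxed 2 (adjusted p up to 0.187). Cbx7 fell by 0.33 (131 ± 5.84 counts in null cells and 165 ± 9.94 in floxed cells, adjusted p = 0.00773). Ezh1 had 459.7, 481 and 551 counts in null cells, against 449.5, 492 and 444 in floxed cells, with overlap (0.10, adjusted p = 0.174). Suz12 was not called either (-0.06, adjusted p = 0.0976). Nor were Cbx2 (-0.15), Cbx8 (-0.09), Phc1 (0.16) and Phc2 (-0.002). Both Polycomb deubiquitinase genes rose, Asxl1 by 0.19 and Bap1 by 0.10, and the Bap1 call was lost without null 2, floxed 1 or floxed 3 (adjusted p up to 0.158).

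Demethylase genes split. Kdm5b (mm9 chr1:136456748-136529454) had 544.3, 542 and 547.3 counts in null cells, against 1185, 1110 and 1084 in floxed cells. Kdm6b (mm9 chr11:69212010-69227177), an inducible gene in myeloid cells, had 778.7, 757.4 and 821.9 counts in null cells, against 1319, 1405 and 1388 in floxed cells. The null libraries were well below the floxed ones in both, with log2 fold changes of -1.05 ± 0.05 for Kdm5b (adjusted p = 1.67e-17) and -0.80 ± 0.05 for Kdm6b (adjusted p = 2.65e-15). Kdm4a fell by 0.15 and Kdm5a by 0.12, and the Kdm5a call was lost without null 1, null 3 or floxed 2. Kdm2b, a K36 demethylase that brings PRC1 to unmethylated CpG islands, had 1311, 1173 and 1242 counts in null cells, against 925.7, 948.7 and 897.3 in floxed cells (0.43 ± 0.05, adjusted p = 6.17e-09). Kdm1a and Kdm4c were not called.

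Hdac7 (mm9 chr15:97623095-97674933) had 933.6, 991.5 and 1045 counts in null cells, against 2316, 2368 and 2134 in floxed cells. No null library reached the lowest floxed library, and the log2 fold change of -1.20 ± 0.05 (fold 0.436, adjusted p = 9.85e-20) was the largest fall of the set. Its neighbour on the other strand, Slc48a1, overlaps Hdac7 exons, and no source used here says whether counting used strand. Hdac2 had 2155, 2205 and 2152 counts in null cells, against 1859, 1699 and 1829 in floxed cells (0.28 ± 0.04, adjusted p = 5.79e-07), and all null libraries were higher. Hdac1 and Hdac3, the other class I members, were not called. Hdac9 rose 2.07-fold from few reads, with 16, 14 and 19 counted reads in null libraries against 7, 6 and 10 in floxed libraries (adjusted p = 0.0116), and this call was lost without null 3 or floxed 2.

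JAK1 signals through STAT transcription factors, which bind pairs of TTC and GAA separated by 3 bases. The upstream sequence of Hdac7, the member that fell most in null cells, is shown from RefSeq on build GRCm38.p6. It spans the 250 bases before 1 of the 4 annotated Hdac7 starts, with TTCNNNGAA in capitals. Among the Hdac7 windows this one held the most matches, 2, and another held 1.
Hdac7, chr15:97831768-97832017, minus strand: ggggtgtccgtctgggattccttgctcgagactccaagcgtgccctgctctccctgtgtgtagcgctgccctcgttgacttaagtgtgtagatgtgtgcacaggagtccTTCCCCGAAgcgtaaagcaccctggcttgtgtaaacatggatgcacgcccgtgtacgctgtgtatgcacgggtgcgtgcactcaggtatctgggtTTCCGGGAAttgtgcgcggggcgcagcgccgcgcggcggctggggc
The motif reads the same on both strands, and its matches begin 141 and 46 bases upstream of the start. A match to TTCNNNGAA stood in 7.02% of the 32851 upstream windows of all genes. Of the members, 35 were in the table with 51 windows, and 3 windows held it, 2 of Hdac7 and 1 of Phc1. Phc1 was not called in null cells (0.16, adjusted p = 0.0644). Kdm5b was in the table and had no match, and Kdm6b was not in the table. The E2F octamers TTTCGCGC and TTTGGCGC, searched on both strands in the same windows and sharing no positions with the TTCNNNGAA matches, stood in 0.654% of all windows and, among members, in windows of Dnmt1 alone. Matches describe letters and are not binding sites, and a part of STAT factors in the Hdac7 result was not tested.

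Among DNA methylation enzymes, Dnmt1 and Dnmt3b rose in null cells. Dnmt1 had 8275, 7755 and 7791 counts in null cells, against 6342, 6244 and 6349 in floxed cells, with no overlap (0.33 ± 0.03, adjusted p = 1.77e-10). Dnmt3b had 280 ± 10.8 counts in null cells and 195 ± 14.8 in floxed cells (0.51, adjusted p = 5.4e-06). Dnmt3a fell by 0.14 (adjusted p = 0.0436), a call lost when any 1 library was left out. Of the TET genes, Tet2 had 961.1, 972.8 and 1066 counts in null cells, against 1111, 1124 and 1213 in floxed cells. All null libraries were lower (-0.20 ± 0.05, adjusted p = 0.000877), and Tet3 fell by 0.15. Tet1 rose 2.08-fold from 25, 50 and 46 counted reads in null libraries, against 13, 23 and 21 in floxed libraries (adjusted p = 0.000976).

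The acetyltransferase genes moved both ways. Ep300 had 1934, 1798 and 1764 counts in null cells, against 2248, 2168 and 2113 in floxed cells (-0.25 ± 0.04, adjusted p = 4.43e-06), without overlap. Its paralog Crebbp fell by 0.18, a call lost without null 1 or null 2, and Kat7 rose by 0.15. Nsd1 and Ash1l, writers of K36 methylation, fell by 0.17 each, with the Ash1l call lost without null 3 (adjusted p = 0.0736), while the 3 K9 methyltransferase genes were not called (0.00 to 0.10). The groups overlapped for Nsd1, with 2071 counts in null 2 against 2045 in floxed 1. Changes of at least 2-fold that also passed the test were seen in 4 members, 9.3%, against 7.3% of all genes. Across single left-out libraries 21 of the 28 calls held each time. Proliferation genes moved with the rises: 9 of 13 were higher and 0 lower, with summed counts of 60860 to 62870 in null cells against 53840 to 54500 in floxed cells. Granulocyte genes were called in both directions, 8 higher and 6 lower. Of the 10 monocyte genes 6 were higher and 2 lower, with summed counts of 61410 to 65450 in null cells against 53790 to 57620 in floxed cells. Both megakaryocyte genes tested were lower, and the summed counts of that list were 14.3 to 29.5 in null cells against 137.9 to 150.3 in floxed cells. The 1 T cell gene tested was lower as well, and its list summed to 42.5 to 48.2 counts in null cells against 73.0 to 84.9 in floxed cells. Their part in the result was not tested.

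**Figure D4:**
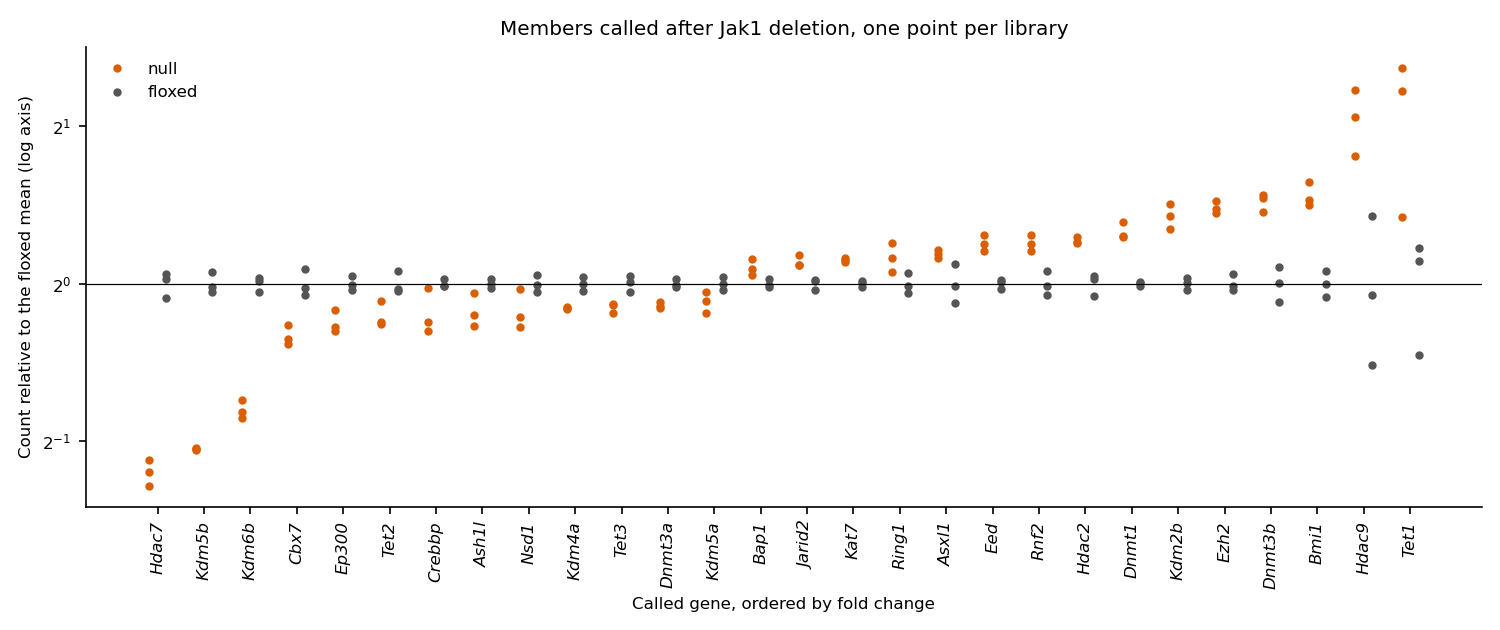
Counts of the 28 called members in each null (orange) and floxed (grey) library, relative to the floxed mean, on a log2 axis, ordered by fold change. Hdac7 and Kdm5b lie below 0.5 of the floxed mean in all null libraries, and Hdac9 and Tet1, which have few reads, scatter most.

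Side by side, 10 members were called in none of the 4 comparisons, 24 in 1, 7 in 2, and Ezh2 and Hdac7 in 3. Of the 24, 19 were called in Jak1 null cells alone, where 55.7% of all genes were called. Over the 9705 genes tested in all 4 comparisons, 35.4% were called in none, 43.5% in 1, 15.1% in 2, 5.13% in 3 and 0.876% in 4. The shares of the 43 members were 23.3%, 55.8%, 16.3%, 4.65% and 0%. These include Tet1, which was not tested in MLL-AF10 or MLL-AF9. With the replicate block in MLL-AF10 the members' counts were 9 in none, 22 in 1, 9 in 2 and 3 in 3. Ezh2 was lower with DOX in MLL-AF10 (-0.18) and MLL-AF9 (-0.50), higher in Jak1 null cells (0.48) and not called with CALM-AF10 off (0.01). Hdac7 was lower with DOX in MLL-AF10 (-0.30), higher with DOX in MLL-AF9 (0.61), lower in Jak1 null cells (-1.20) and not called with CALM-AF10 off (-0.02). In MLL-AF9 the Ezh2 call was lost with the replicate block (adjusted p = 0.0861, limma). When single MLL-AF9 libraries were left out, the Ezh2 and Hdac7 calls held only without DOX 3. Bmi1 was lower with CALM-AF10 off (-0.38), higher in Jak1 null cells (0.56), and called with DOX in MLL-AF10 (-0.14) under the block alone. Kdm5b was lower with DOX in MLL-AF10 (-0.26) and in Jak1 null cells (-1.05), with values of 0.29 in MLL-AF9 and -0.03 with CALM-AF10 off that were not called. The tables were normalized separately and differ in unit, so these differences between models were not tested.

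**Figure D5:**
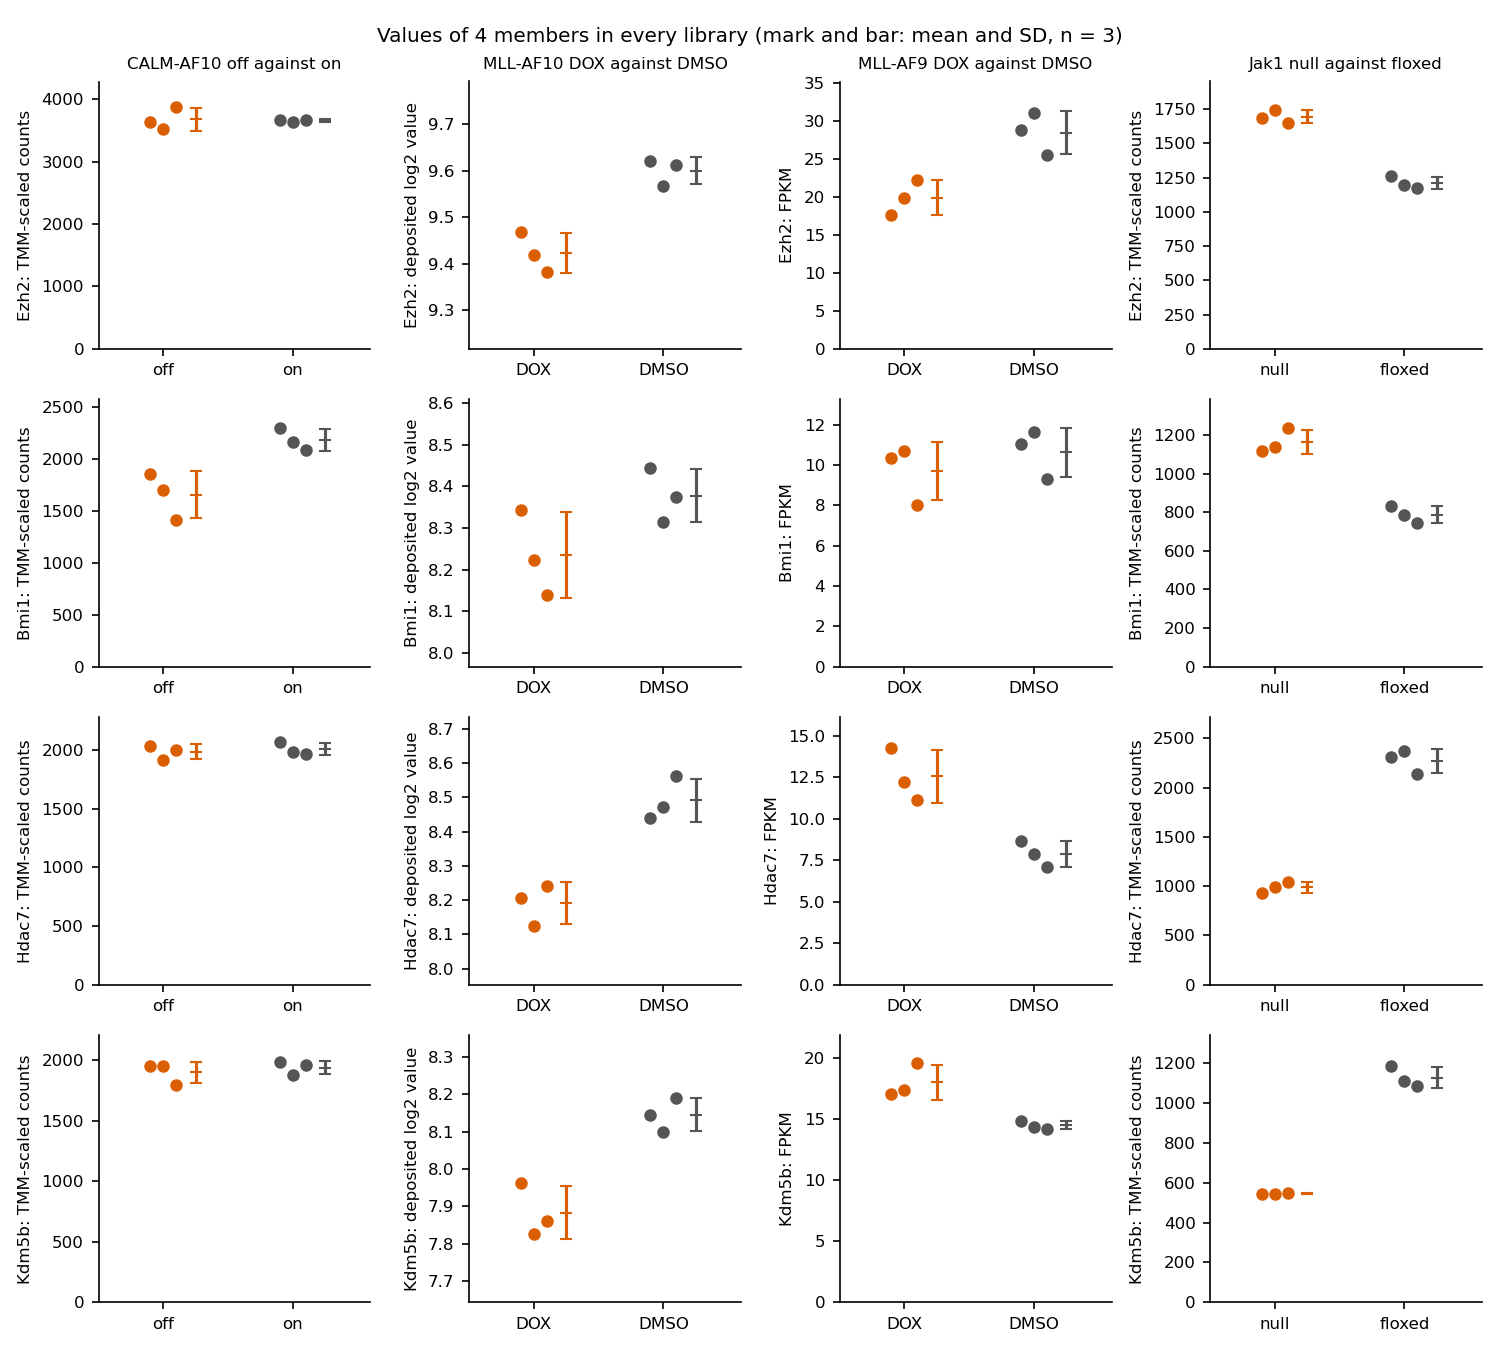
Ezh2, Bmi1, Hdac7 and Kdm5b in every library of the 4 comparisons, with the mean and SD of 3 libraries beside the points; counts and FPKM axes start at 0 and the log2 axes do not. Hdac7 is lower in all DOX libraries of MLL-AF10 and in all Jak1 null libraries, and higher in all DOX libraries of MLL-AF9.

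A further 97 genes of the same complexes and enzyme classes, outside the 43, were read in the same fits. Unlike those of the members, their calls were not followed through the alternative settings or with single libraries left out. With CALM-AF10 off 1 of 95 tested rose and 3 fell, against 2.13% higher and 3.11% lower over all genes. With DOX in MLL-AF10 6 of 94 rose and 16 fell, against 10.6% and 9.17% of all genes. With DOX in MLL-AF9 3 of 96 rose and 6 fell, against 7.23% and 4.54%. In Jak1 null cells 27 of 96 rose and 24 fell, against 27.4% and 28.3%, which is near the share over all genes. Bcor, which encodes a corepressor of a PRC1 variant, fell in all 4 comparisons. It had 3554 ± 196 counts with CALM-AF10 off and 4127 ± 120 with it on (-0.21, adjusted p = 0.0447), and 15.3 ± 1.27 FPKM with DOX and 21.4 ± 0.518 with DMSO in MLL-AF9 (-0.46, adjusted p = 0.0234). In MLL-AF10 it fell by 0.33 and in Jak1 null cells by 0.48, to 1684 ± 78.6 counts in null cells against 2354 ± 37.1 in floxed cells (SD, n = 3 each).

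Demethylase genes were among those named from that list. Kdm7a, which encodes a demethylase of K9 and K27, was higher with CALM-AF10 off by 0.35 (adjusted p = 0.042, edgeR). With DOX it was higher by 0.41 in MLL-AF10 and by 1.05 in MLL-AF9 (adjusted p = 2.5e-05 and 0.00126, limma). It fell by 0.40 in Jak1 null cells (409 ± 21.7 counts in null cells and 541 ± 24.3 in floxed cells). In MLL-AF9 Kdm7a stood at 15.8 ± 0.455 FPKM with DOX and 7.14 ± 0.336 with DMSO. Jmjd1c fell with DOX in MLL-AF10 (-0.44) and in MLL-AF9 (-0.75). Kdm3a, a K9 demethylase, fell with CALM-AF10 off (-0.26), with DOX in MLL-AF10 (-0.28) and in Jak1 null cells (-0.59). Also named by adjusted p were Kmt5b (-0.28) with CALM-AF10 off, Kmt5a (0.19) and Hdac4 (0.19) in MLL-AF10, Sirt2 (0.51), Phf1 (0.54) and Rbbp4 (-0.38) in MLL-AF9, and Chd3 (0.36), Nsd2 (0.33), Hdac10 (0.64) and Kdm4b (-0.57) in Jak1 null cells. Rbbp4 is a histone-binding subunit of PRC2, and Nsd2 writes K36 methylation.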

How the data were processed

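RNA-seq libraries of the TruSeq kit were made from polyA RNA, or from total RNA for MLL-AF9, per the labels. The authors deposited read counts per gene for CALM-AF10 and for Jak1; the Jak1 table is called FPKM in its name but holds whole-number counts. For MLL-AF10 the authors deposited normalized log2 values of unstated transformation, and for MLL-AF9 the authors deposited FPKM. Bowtie 0.12.2 and mm9 appear in the submitters' processing notes with no role, and no counter or annotation is stated.

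The CALM-AF10 comparison follows its column names, on and off, since no source used here ties them to the DMSO and DOX titles. Jak1 columns named DMSO were taken as floxed. Fits used the 6 libraries of 1 table at a time. The quasi-likelihood test of edgeR 4.0.16 (R 4.3.3), with filterByExpr and TMM, served for counts. The log2 values at a mean of at least 3.32, and log2(FPKM + 1) at a mean of at least 1 FPKM, went to limma 3.58.1 with a trended eBayes. The pseudocount makes folds of low genes too small. Benjamini-Hochberg adjustment covered all genes tested, and an adjusted p under 0.05 was a call. Printed counts are TMM-scaled unless called counted reads.

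The numbered MLL-AF10 libraries pair: deviations from the group means correlated at 0.397, 0.199 and 0.194 between libraries of the same number. The main results and figures come from fits without a block, also for MLL-AF10, and results with the block are named as such. In CALM-AF10 the same-numbered libraries correlated at 0.3, 0.155 and 0.007, and only replicate 1 matched its own number best. In MLL-AF9 and Jak1 the values lay between -0.013 and 0.02. Alternatives were other scalings, filters and pseudocounts, DESeq2 1.42.0, a replicate block and leaving out each library. The tests were tried on simulated data first, where no minimum of recovered changes was required for MLL-AF9.

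The members, their roles and the gene lists were chosen with earlier results of these data known. Values in every library are given for up to 5 called members a direction by adjusted p, and for Ezh2, Ezh1, Bmi1 and members called in 3 comparisons; other values were chosen after they were seen. Of the 97 other genes, up to 3 a direction are named. Counts of exon-overlapping genes are uncertain where strand was not used: 9 members share exon positions with a gene on the other strand and 1 with a gene on the same strand, in the mm9 annotation.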

Additional observations from a re-analysis of the deposited data

Results flagged for a closer look

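Hdac7 moved in opposite directions in the 2 MLL fusion models. With DOX its difference was -0.30 in MLL-AF10 (adjusted p = 0.000118, limma) and 0.61 in MLL-AF9 (adjusted p = 0.0287, limma), and in each model all DOX libraries lay on 1 side of all DMSO libraries. The difference between the models was not tested, since the tables hold different units and were normalized separately. The MLL-AF10 call held without any 1 library, whereas the MLL-AF9 call was lost without DOX 1, DOX 2 or any of the DMSO libraries. Without a filter on low values both calls were lost, with adjusted p of 0.0614 in MLL-AF10 and 0.0973 in MLL-AF9. The polyA selection named for MLL-AF10 and the total RNA named for MLL-AF9 differ between the models, and the part of this difference in the result was not tested.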

How the results depend on the processing

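Without a filter on low values the members called were 2 lower in MLL-AF10, and 0 higher and 0 lower in MLL-AF9. With the replicate block the MLL-AF9 calls were 1 higher and 0 lower, the MLL-AF10 calls 17 lower, the CALM-AF10 call stayed at 1, and the Jak1 calls were 14 higher and 12 lower. The calls lost with the block were Ezh2 and Cbx8 in MLL-AF9 (adjusted p = 0.0861 and 0.0748) and Ring1 and Dnmt3a in Jak1 (adjusted p = 0.0540 and 0.0607). Leaving out single libraries gave 0 to 1 lower in CALM-AF10, 6 to 15 lower in MLL-AF10, 0 to 2 higher and 0 to 1 lower in MLL-AF9, and 13 to 15 higher and 10 to 12 lower in Jak1. Calls over all genes then ranged from 146 to 944 in CALM-AF10, 1307 to 2396 in MLL-AF10, 648 to 1036 in MLL-AF9 and 5819 to 6145 in Jak1. The cause was not tested. DESeq2 called 12 higher and 11 lower members for Jak1 and 1 lower for CALM-AF10. Median-centred MLL-AF10 libraries gave 15 lower. Other size factors, count filters and pseudocounts, the 5 FPKM filter, TMM-rescaled FPKM and eBayes without trend left the counts of members as they were. Some uncalled values changed sign without 1 library: Ezh2 in CALM-AF10 ranged from -0.03 to 0.04, Hdac7 in CALM-AF10 from -0.031 to 0.016 (0.007 without on 1) and Ezh1 in MLL-AF10 from -0.004 to 0.055. Same-numbered libraries correlated at 0.3, 0.155 and 0.007 in CALM-AF10 and between -0.013 and 0.02 in MLL-AF9 and Jak1. Over all genes the block changed the CALM-AF10 calls from 648 to 1048, the MLL-AF10 calls from 2089 to 3102 and the MLL-AF9 calls from 1281 to 781, and without a filter on low values the MLL-AF10 calls were 604 and the MLL-AF9 calls 592. The 3 libraries a group limit all of these, the scale of the MLL-AF10 values is unknown, and low read numbers limit Hdac9 and Tet1.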

Other observations

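The authors' deposited table lists genes lower in the libraries they call off, with no test or threshold given. Of 359 genes listed for CALM-AF10, 1 is a member, Bmi1. Of 966 listed for MLL-AF10, 7 are members: Ezh2, Bmi1, Cbx2, Kdm5b, Hdac7, Hdac9 and Dnmt3a. Of 887 listed for MLL-AF9 in the authors' deposited table, 2 are members, Ezh2 and Suz12. None is in the authors' deposited table of 25 genes common to all 3 fusions, and Bmi1 is in the 142 listed for the AF10 fusions only. Without the replicate block Bmi1 in MLL-AF10 and Suz12 in MLL-AF9 were not called (adjusted p = 0.0514 and 0.207, limma), and with it Bmi1 in MLL-AF10 was called (adjusted p = 0.000813).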
